A study of Mus musculus with 4 samples.

Results

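Transcripts of 10 genes that set the balance between protein breakdown and growth in muscle were measured in mouse gastrocnemius. They form a set given by gene name, with no measured value in the rule, although earlier results of these data were known when it was drawn up: the FoxO transcription factors Foxo1, Foxo3 and Foxo4, the sestrins Sesn1, Sesn2 and Sesn3, the tuberous sclerosis genes Tsc1 and Tsc2, the kinase gene Mtor and its scaffold gene Rptor. All 10 were among the 23282 gene rows of the deposited tables. The study crossed high-intensity treadmill exercise (E) with a tumor (T) raised by tail vein injection of CT26 cells, a mouse colorectal cancer line. The normal control group (E-T-) had neither and the normal exercise group (E+T-) had exercise alone, while the cancer control group (E-T+) had the tumor alone and the cancer exercise group (E+T+) had both. All mice were males of strain CDF1, the labels give postnatal day 28, which matches the age at purchase in the study's methods and not that at sampling, and 10 mice made up a group, but each group had 1 sequenced library, described in the study as a representative mouse. Reads were made with QuantSeq, which reads the 3′ end of polyadenylated RNA, so a read count does not grow with transcript length.

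FoxO factors are kept out of the nucleus when insulin or growth factor signals activate the kinase AKT, and they enter it when those signals fade. In skeletal muscle they are best known for switching on the ubiquitin ligases and autophagy genes of atrophy. The kinase mTOR, held in complex 1 (mTORC1) by its scaffold raptor, promotes protein synthesis and restrains autophagy. The TSC1 and TSC2 proteins form a brake on mTORC1 by switching off the small GTPase Rheb, and the sestrins form another by binding GATOR2, a part of the amino acid sensing arm at the lysosome. Sestrin 1 is also known as a p53 target and sestrin 3 as a FoxO target.

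Values below are normalized read counts, the deposited log2 values turned back to a linear scale after removal of the pseudocount of 1. A difference between 2 libraries is given on the log2(normalized read count + 1) scale of the deposit, which understates changes of low genes, with a 95% Clopper-Pearson interval from the whole reads behind it. The interval covers counting error only, not variation between animals. Where values are given in pairs, the sedentary library comes first and the exercised library second, and lists of 4 values run from the pair without a tumor to the pair with one. A gene was counted as differing when the 2 libraries were at least 2-fold apart and 1 of them had a normalized read count of at least 4. With 1 library per group no test between conditions was possible, so counts are set beside the share of all genes that met the same rule. The tumor comparison in sedentary mice and the exercise comparison in tumor-bearing mice share the cancer control library. Their differences are therefore not independent. The libraries held 10647417 to 13226069 reads, and 3 reads, the floor used for genes without reads, were at most 2.82e-05% of a library.

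Upstream sequences of Foxo1, Sesn1 and Mtor are shown because these were the members with more than 16 normalized reads in every library that were at least 2-fold higher in both tumor comparisons. They are the 250 bases before each RefSeq start (GRCm38.p6, plus strand, 5′ to 3′), with the CCAAT box, CCAAT or ATTGG on the other strand, in capitals. Sesn1 has 2 RefSeq starts. The runs lie at chr3:52268087-52268336 for Foxo1, chr10:41810324-41810573 and chr10:41887189-41887438 for Sesn1 and chr4:148448332-148448581 for Mtor.
Foxo1: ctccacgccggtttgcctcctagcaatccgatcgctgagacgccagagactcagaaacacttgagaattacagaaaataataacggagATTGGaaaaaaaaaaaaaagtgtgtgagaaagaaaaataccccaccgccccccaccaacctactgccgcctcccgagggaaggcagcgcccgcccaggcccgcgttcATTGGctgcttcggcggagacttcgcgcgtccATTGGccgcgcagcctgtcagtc
Sesn1, upstream start: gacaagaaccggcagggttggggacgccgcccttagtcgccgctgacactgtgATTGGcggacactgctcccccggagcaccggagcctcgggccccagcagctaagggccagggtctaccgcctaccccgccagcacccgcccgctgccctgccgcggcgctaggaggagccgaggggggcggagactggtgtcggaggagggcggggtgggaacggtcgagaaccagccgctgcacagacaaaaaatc
Sesn1, downstream start: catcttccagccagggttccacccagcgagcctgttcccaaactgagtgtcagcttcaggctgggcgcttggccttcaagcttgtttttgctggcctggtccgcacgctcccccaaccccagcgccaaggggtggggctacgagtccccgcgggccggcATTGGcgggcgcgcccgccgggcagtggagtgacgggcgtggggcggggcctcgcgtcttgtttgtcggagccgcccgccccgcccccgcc
Mtor: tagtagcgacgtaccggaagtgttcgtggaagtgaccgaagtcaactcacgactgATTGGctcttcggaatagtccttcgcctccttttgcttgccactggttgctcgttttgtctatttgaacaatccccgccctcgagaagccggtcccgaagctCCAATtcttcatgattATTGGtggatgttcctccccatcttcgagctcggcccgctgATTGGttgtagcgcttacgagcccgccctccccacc

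Windows of 250 bases before and 50 after a start were available for 9 of the 10 genes, all but Foxo4, in 10 windows. CCAAT on either strand was in 6 of these 10 windows and in 37.4% of all 32851 RefSeq windows. The FoxO core motif GTAAACA, on either strand, was in 3.65% of all windows and in 1 of the 10, that of the upstream Sesn1 start. The match, read as TGTTTAC, lay at chr10:41810596-41810602, 22 bases past the start, and its capitals stand out in this 30-base stretch of the plus strand.
Sesn1 site: gaaccttctacTGTTTACcagccttttggg
No member window held CAAAACA, the E-box CACGTG or TGATGNAA, the letters searched for ATF4 sites, which were in 6.28%, 7.15% and 3.97% of all windows in that order. These matches describe letters in a window and not factor binding.

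**Figure D1:**
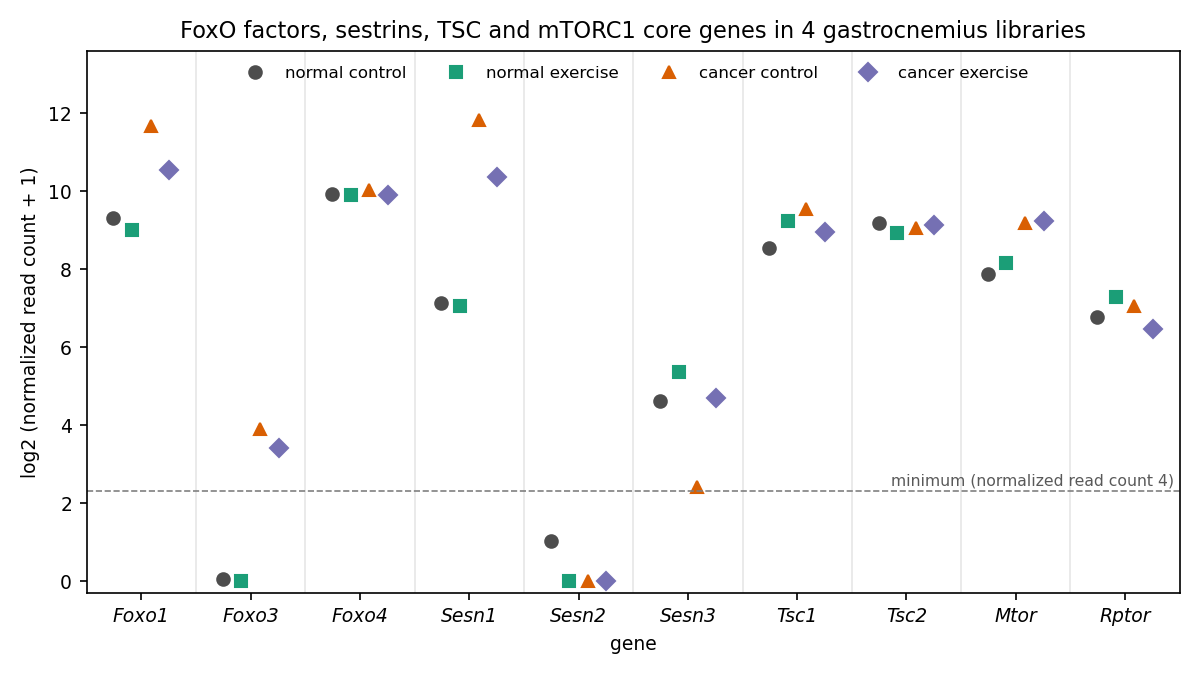
Deposited value of each of the 10 genes (y axis, log2 of the normalized read count plus 1) in the 4 libraries, 1 point per library, with a dashed line at the minimum of 4 normalized reads. Foxo1 and Sesn1 were highest in cancer control and next highest in cancer exercise, while Foxo4 and Tsc2 stayed nearly level.

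Of the FoxO factors, Foxo1 was higher in both libraries with a tumor and Foxo4 was nearly level. Foxo1 (chr3:52268336-52353221, GRCm38), a main driver of the atrophy genes in muscle, had 630 normalized reads in sedentary and 513 in exercised mice without a tumor, and 3278 and 1499 with one. Both libraries with a tumor were above both without. In sedentary mice Foxo1 was 5.20-fold higher with the tumor, a log2 difference of 2.38 (2.25 to 2.51). In exercised mice it was 2.92-fold higher, 1.55 (1.41 to 1.68). Among tumor-bearing mice it was 2.19-fold lower with exercise, a log2 difference of -1.13 (-1.22 to -1.04), and that comparison shares the cancer control library with the first. In healthy mice the difference with exercise was -0.30 (-0.46 to -0.13), under 2-fold, and it was -0.13 under total count scaling.

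Foxo4 (X:101254528-101260873), the smallest of the 3 genes in genomic span, was at 970 and 947 normalized reads without a tumor and 1036 and 957 with one. Its log2 range over the libraries was 0.13, and 99.6% of the 12055 genes with a mean of at least 16 ranged at least as far. Its intervals included 0 in all 4 comparisons, and across these its ends lay between -0.25 and 0.23. Total count scaling turned the sign of 2 of these small differences, that of exercise without a tumor and that of the tumor under exercise.

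Foxo3 (chr10:42181841-42276755, minus strand), which acts on many of the same atrophy genes as Foxo1, was close to the detection floor. Its reads numbered 0 and 0 without a tumor, and 13 and 9 with one. With the floor of 3 reads in place of 0, the scaled ratio was 4.36 for cancer control over normal control. It was 4.01 for cancer exercise over normal exercise. These ratios are not lower limits. The counting intervals began at 1.62 and 1.40 on the log2 scale and had no upper end. Between the tumor-bearing libraries it differed by -0.47 (-1.92 to 0.82), so no difference was detectable at this depth. The region of the gene that was counted was not stated.

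The make-up of the FoxO reads does not depend on how libraries are scaled. Foxo1 supplied 39.4% of the reads of the 3 FoxO genes in normal control (exact 95% interval 36.9 to 41.9) and 35.1% in normal exercise (32.9 to 37.4). With a tumor its share was 75.7% without exercise (74.4 to 77.1) and 60.8% with exercise (58.7 to 62.8). There were 0.65 Foxo1 reads per Foxo4 read in normal control and 3.17 in cancer control. Reads at different 3′ ends need not be counted with equal yield, so only the shift between libraries is read here.

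Sesn1 showed the widest span of the 10 genes, and its relatives did not follow it. Sesn1 (chr10:41809935-41908424), whose upstream start holds the printed TGTTTAC match, was at 140 and 132 normalized reads without a tumor, and at 3627 and 1312 with one. The libraries with a tumor were far above those without. The tumor difference was 25.7-fold in sedentary mice, 4.68 on the log2 scale (4.44 to 4.95), and 9.88-fold in exercised mice, 3.30 (3.08 to 3.56). In these comparisons 1.01% and 2.06% of the genes that met the minimum were at least as far apart in the same direction. With exercise it was 2.76-fold lower in tumor-bearing mice, -1.47 (-1.56 to -1.37). In healthy mice the exercise difference was -0.09 (-0.43 to 0.25), positive under total count scaling.

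Sesn3 (chr9:14275067-14333101), the sestrin known as a FoxO target, had 22 and 49 reads without a tumor and 4 and 23 with one. It was lowest in the library in which Foxo1 was highest. The tumor difference in sedentary mice was -2.19 (-4.45 to -0.89) and the exercise difference in tumor-bearing mice 2.28 (0.99 to 4.53), and both values rest on the 4 reads of cancer control. With exercise in healthy mice it differed by 0.75 (0.01 to 1.56), and with the tumor in exercised mice by -0.66 (-1.46 to 0.07). Sesn2 (chr4:132492032-132510501, minus strand), a leucine sensor induced by ATF4, had 1 read in normal control and 0 in each of the other libraries, so it met no minimum and no difference is given. Sesn1 made up 85.2% of sestrin reads in normal control (78.6 to 90.4) and 76.9% in normal exercise (70.6 to 82.4). With a tumor that share was 99.9% without exercise (lower bound 99.7) and 98.1% with it (97.2 to 98.8).

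The subunits of the TSC complex differed from each other. Tsc1 (chr2:28641228-28691167), which stabilizes its partner, was at 371 and 605 normalized reads without a tumor and at 747 and 494 with one, so normal control was the lowest library. It was 2.01-fold higher with the tumor in sedentary mice, 1.01 on the log2 scale (0.82 to 1.20), only just inside the 2-fold rule. With exercise it was higher in healthy mice, 0.70 (0.52 to 0.89), and lower in tumor-bearing mice, -0.60 (-0.77 to -0.42). In exercised mice the tumor difference was -0.29 (-0.46 to -0.12).

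Tsc2 (chr17:24595816-24632630, minus strand), which carries the activity that acts on Rheb, was at 583, 489, 530 and 564 normalized reads in the same order. Its log2 range was 0.25, and 97.5% of the genes with a mean of at least 16 ranged at least as far. Its largest difference was -0.25 with exercise in healthy mice (-0.42 to -0.08), and this was -0.09 under total count scaling. Reads of Tsc1 were 38.9% of the TSC reads in normal control (35.7 to 42.2) and 55.3% in normal exercise (52.6 to 57.9), then 58.5% (55.6 to 61.3) and 46.7% (43.5 to 49.9) in the matching libraries with a tumor. The last 693 bases of Tsc2 overlap Pkd1 on the opposite strand. Pkd1 had 385, 433, 408 and 339 reads in the same order, and strand handling in the counting was not stated, so reads of the pair cannot be told apart.

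Of the mTORC1 core, Mtor was higher in both tumor libraries and Rptor was not. Mtor (chr4:148448611-148557683), the kinase, was at 235 and 285 normalized reads without a tumor and at 583 and 607 with one. It was 2.48-fold higher with the tumor in sedentary mice, 1.31 (1.08 to 1.54), and 2.12-fold higher in exercised mice, 1.09 (0.89 to 1.28). The latter was 0.93, under 2-fold, with total count scaling. Exercise differences were small, 0.28 in healthy mice (0.03 to 0.53) and 0.06 in tumor-bearing mice (-0.12 to 0.23, slightly negative under total count scaling). Unlike Foxo1 and Sesn1, Mtor was not lower in cancer exercise than in cancer control.

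Angptl7, which lies within Mtor on the opposite strand, had more reads than Mtor in each library, with 1691 and 1306 in the pair without a tumor and 2912 and 2156 in the pair with one. It lies at chr4:148495183-148500460 and does not cover the 3′ end of Mtor at 148557683, where QuantSeq reads of Mtor are expected. Since Angptl7 had more reads than Mtor, its reads were not all counted for Mtor too. Whether a part of them was is not known, as strand handling was not stated. Rptor (chr11:119602905-119899576), the scaffold that recruits substrates to mTOR, was at 109 and 154 normalized reads without a tumor and at 133 and 86.7 with one. Cancer exercise was the lowest library. It was higher with exercise in healthy mice, 0.50 (0.15 to 0.87), and lower with exercise in tumor-bearing mice, -0.61 (-1.04 to -0.20). The tumor difference was 0.29 in sedentary mice (-0.10 to 0.68) and -0.82 in exercised mice (-1.23 to -0.45). For each Rptor read there were 2.17 and 1.85 Mtor reads without a tumor, and 4.40 and 7.0 with one.

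**Figure D2:**
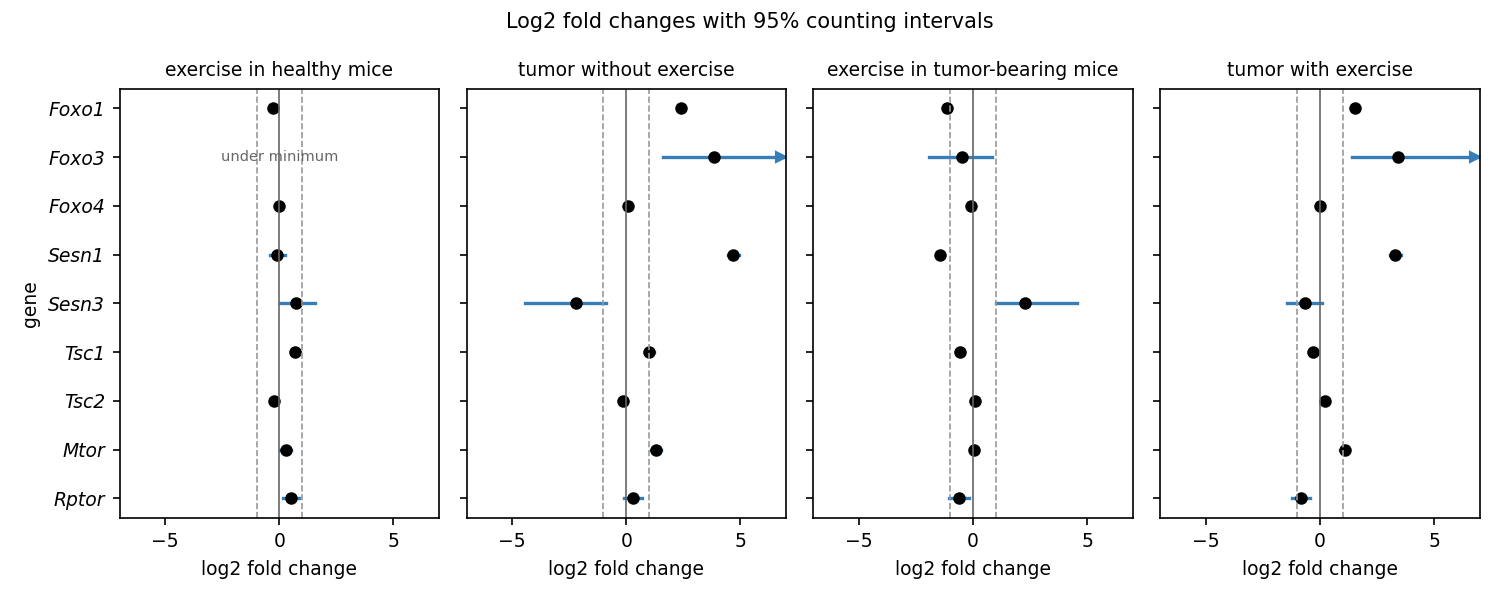
Log2 difference of the 9 genes that met the minimum in the 4 comparisons (x axis, log2 of the normalized read count plus 1), with 95% counting intervals, which are narrower than the point for abundant genes and open to the right for Foxo3 where the first library had 0 reads. Sesn1 lies far to the right in both tumor comparisons, at 4.68 and 3.30, while Foxo4 stays near 0 in each comparison.

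Counted over the family, the first comparison asked how exercise alone changed these genes. None of the 8 members that met the minimum was 2-fold apart between normal exercise and normal control, against 21.5% of 14518 genes, 9.44% higher and 12.1% lower. By a two-sided exact binomial test on the reads, which compares these libraries and not the conditions, 4 of the 10 differed at an adjusted p under 0.05 (Sesn3, Tsc1, Mtor and Rptor), beside 50.8% of all genes with reads. Foxo3 had no reads in either library of this pair and was not tested. The median log2 difference of the 8 members that met the minimum was 0.12, against -0.01 for all genes that met it.

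The tumor comparison in sedentary mice held the most differences. Of 9 members that met the minimum, 5 were at least 2-fold higher with the tumor (Foxo1, Foxo3, Sesn1, Tsc1 and Mtor) and 1 was lower (Sesn3). Across all genes 45.1% were 2-fold apart, 20.9% higher and 24.2% lower. The median of the members was 1.01 and that of all genes -0.04, and Foxo3 met the minimum only through the library in which it was high.

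Among tumor-bearing mice, 2 of 9 members were at least 2-fold lower with exercise (Foxo1 and Sesn1) and 1 was higher (Sesn3), beside 30.6% of all genes, 15.6% higher and 15.1% lower. In exercised mice, 4 of 9 were higher with the tumor (Foxo1, Foxo3, Sesn1 and Mtor) and none was lower, beside 30.3% of all genes, of which 13.9% were counted as higher and 16.3% as lower. Foxo3 met the minimum there only through cancer exercise, and the count was 3 with a minimum of 4 in both libraries. It was also 3 under total count scaling, without Mtor. The exact binomial test passed 7 of the 10 for the tumor in sedentary mice, beside 66% of all genes with reads, 6 for exercise in tumor-bearing mice, beside 56.6%, and 7 for the tumor in exercised mice, beside 58.9%. Sesn2 had no reads in the pairs that include cancer exercise and was not tested there. The members' shares at least 2-fold apart, 66.7%, 33.3% and 44.4% in these 3 comparisons, rest on 9 genes each and are given as a description. Foxo4 passed the binomial test in 2 comparisons although its intervals, which use TMM scaling in place of library totals, included 0. So did Sesn3 for the tumor in exercised mice. The reverse held for Foxo1 and Tsc2 with exercise in healthy mice, and for Tsc2 with the tumor in exercised mice. There the intervals excluded 0 and the test did not pass.

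**Figure D3:**
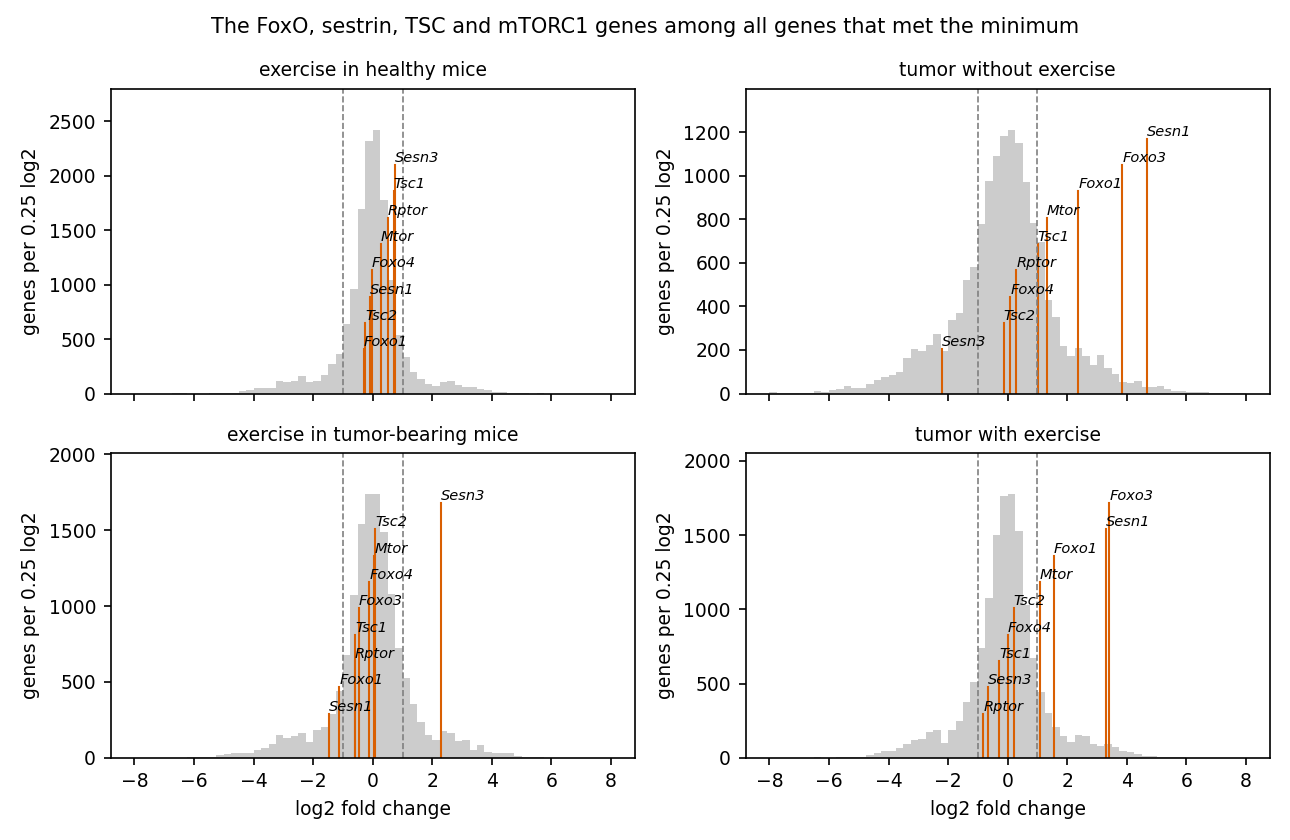
Distribution of the log2 differences of all genes that met the minimum in each comparison (x axis, log2 difference; y axis, genes per bin of 0.25), with the members as orange lines whose heights only separate the names, and dashed lines at 2-fold. Sesn1 and Foxo3 lie in the right tail of both tumor comparisons, and Foxo4 and Tsc2 lie near the centre in each panel.

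Pathway genes from lists chosen for their roles show what surrounded the members. Earlier results of these data were known when the lists were chosen, so their shares beside all genes are given as a description. The arm upstream of FoxO runs from insulin receptors to AKT. With the tumor in sedentary mice, 7 of its 17 genes were at least 2-fold higher and 2 lower, 52.9% beside 45.1% of all genes, with a median of 0.52. Irs2, an adaptor of the insulin receptor, was at 9.63 and 4.70 normalized reads without a tumor and 173 and 60.6 with one. Its relative Irs1 ran the other way, at 1183, 871, 311 and 455 normalized reads. Insr, the receptor itself, was at 233, 198, 888 and 637, and Akt1 was at 1220, 3160, 7611 and 7296, higher in each library than in normal control. With exercise alone 1 gene of the arm, Akt1, was at least 2-fold higher and none lower, 5.88% beside 21.5% of all genes.

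Genes known as FoxO targets in muscle were mostly higher with the tumor. In sedentary mice 16 of 26 were at least 2-fold higher and 2 lower, 69.2% beside 45.1% of all genes, with a median of 1.67. In exercised mice 14 were higher and 1 lower, 57.7% beside 30.3%, with a median of 1.26. With exercise in tumor-bearing mice none was higher and 11 were lower, 42.3% beside 30.6%, with a median of -0.50. That comparison shares the cancer control library with the tumor comparison in sedentary mice. In healthy mice none was higher and 5 were lower with exercise, 19.2% beside 21.5%, with a median of -0.23. These counts were the same under total count and median-of-ratios scaling. TMM scaling also left them the same, but it nearly repeats the scaling of the deposited values. Fbxo32, the atrogin-1 ubiquitin ligase, was at 3575 and 812 normalized reads without a tumor and 37250 and 18103 with one. Gabarapl1, which builds autophagosomes, was at 783, 646, 7696 and 2063, the same order of libraries as Foxo1 and Sesn1. It was chosen after its values were seen.

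Other target genes had the contrasts in other proportions. Pdk4, which turns fuel use away from glucose, was at 427 and 21.7 normalized reads without a tumor and 1060 and 969 with one, with a wide exercise difference in healthy mice and a narrow one in tumor-bearing mice. Eif4ebp1, the translation repressor that mTORC1 silences, was at 1107, 1188, 13596 and 13891, level with exercise and far higher with the tumor. Ddit4 encodes REDD1, a brake that acts through TSC, and was at 360, 380, 17486 and 7874.

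Of 14 coregulators and modifiers of FoxO, 2 were higher (Sirt1 and Foxk1) and 2 lower (Sirt3 and Foxo6) with the tumor in sedentary mice, 28.6% beside 45.1% of all genes. Foxo6, the fourth FoxO gene of mammals, was at 70.1 and 52.0 normalized reads without a tumor and 17.2 and 2.23 with one, the reverse of Foxo1 across the tumor. Sirt3, a mitochondrial deacetylase, was at 214, 45.3, 21.5 and 40.1.

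Of 12 genes of the p53 and ATF4 responses that are linked to sestrins, 4 were higher and 2 lower with the tumor in sedentary mice, 50% beside 45.1% of all genes, with a median of 0.72. Cdkn1a, the p53 target that halts the cell cycle, was at 404 and 272 normalized reads without a tumor and 8598 and 3668 with one, close to the pattern of Sesn1. Ccng1, another p53 target, went the other way, at 8822, 4460, 1620 and 3439. Chac1, an ATF4 target, was at 968, 59.0, 478 and 473, lowest with exercise in healthy mice.

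Of 13 brakes on mTORC1 other than the sestrins, Tsc1 and Tsc2, 1 was higher (Ddit4) and 5 were lower (Ddit4l, Deptor, Tbc1d7, Prkab2 and Prkag3) with the tumor in sedentary mice. Their share of 46.2% is close to the 45.1% of all genes, so the count is no result about the list, and its median was -0.42. Total count and median-of-ratios scaling each raised the higher count to 2. Tbc1d7, which encodes the remaining subunit of the TSC complex, was at 98.9 and 99.7 normalized reads without a tumor and 34.3 and 120.2 with one. Ddit4l, or REDD2, was at 13521 and 7906 normalized reads without a tumor and 674 and 1886 with one. Prkag3, the AMPK subunit of fast muscle fibres, was at 1842, 1838, 31.1 and 129. In tumor-bearing mice 4 of these brakes were higher with exercise (Ddit4l, Tbc1d7, Prkab2 and Prkag3) and Ddit4 was lower, 38.5% beside 30.6% of all genes.

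Among 8 further partners of mTORC1, 2 were higher (Rhebl1 and Tti2) and 3 lower (Mlst8, Deptor and Telo2) with the tumor in sedentary mice, 62.5% beside 45.1% of all genes. Mlst8, a core subunit, was at 123 and 156 normalized reads without a tumor and 51.5 and 108 with one, opposite to Mtor between the sedentary libraries. Of 16 outputs of mTORC1, 3 were higher (Eif4ebp1, Ulk1 and Larp1) and 3 lower (Eif4e, Eef2k and Tfeb), or 37.5%. Tti2 and Larp1 are named here after their values were seen. Ulk1, the autophagy kinase that mTORC1 restrains, was at 693, 511, 2848 and 1037.

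Genes of the amino acid arm that sestrins act on differed in both directions. Of 14 genes of GATOR1, GATOR2 and KICSTOR, 11 were in the deposited tables, of which 3 were higher and 3 lower with the tumor in sedentary mice, 54.5% beside 45.1% of all genes. Wdr59, a GATOR2 subunit, was at 40.4 normalized reads in normal control, 44.7 in normal exercise and 41.1 in cancer exercise but had 0 reads in cancer control. Of 12 Rag GTPase and lysosomal anchor genes that met the minimum, 3 were higher and 1 lower, or 33.3%. Of the 4 genes of mTORC2, the other complex of mTOR, 2 were lower, Prr5 and Prr5l, of which the latter, named after its values were seen, had at most 12 reads in any library and 0 in cancer control. Over all 126 distinct pathway genes that met the minimum, 38 were higher and 24 lower in this comparison, 49.2% in all beside the 45.1% of all genes.

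**Figure D4:**
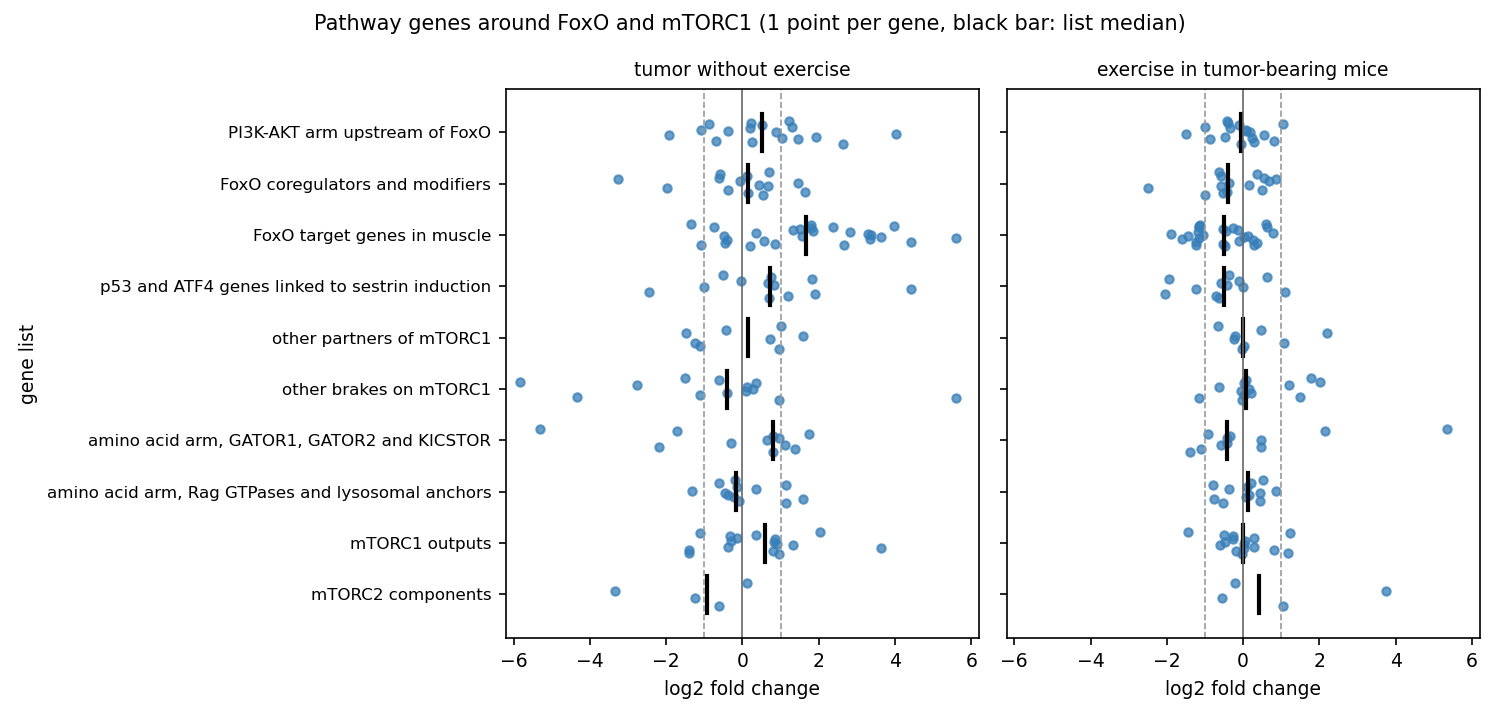
Log2 differences of the genes of the 10 pathway lists that met the minimum (x axis; 1 point per gene, black bars at list medians, dashed lines at 2-fold), for the tumor in sedentary mice and for exercise in tumor-bearing mice. In the FoxO target list 16 genes lie past the right dashed line with the tumor, and none does with exercise. Both panels use the same cancer control library.

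Genes whose pattern over the 4 libraries was most like that of a member were found by the Euclidean distance of log2 values centred on each gene's mean, over genes with a mean of at least 16 normalized reads. For Sesn1 they were Csrnp1 at a distance of 0.36, Cdkn1a at 0.39 and Btg2 at 0.47, and these 3 were the only genes within 0.5. Csrnp1 was at 11.8 and 11.2 normalized reads without a tumor and 291 and 148 with one. For Mtor, Cpm at 0.10, Rnf144b at 0.11 and Gabarap at 0.11 were nearest, among 453 genes within 0.5. Tsc1 had 861 genes within 0.5, led by Sav1 at 0.07. Foxo3, with the widest range of its family, was nearest to D17H6S56E-5 at 0.24, from few reads. For Foxo1, added after its values were seen, Mef2d at 0.15, Gucd1 at 0.16 and Nub1 at 0.17 came first, and 56 genes lay within 0.5.

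Cell type markers moved with the groups too. Myofibre genes, which mark the labelled tissue, had reads for 8 of 8 in every library. They summed to 1533260 and 1224680 normalized reads without a tumor and 861184 and 980956 with one. With the tumor in sedentary mice their median log2 difference was -0.52, but they did not move together. Acta1 went from 347342 to 134849 and Pvalb from 246119 to 13540, while Tnnt3 went from 144028 to 174515 and Myh1 from 7701 to 18990. Fibroblast genes summed to 78275, 41015, 36123 and 36346, mostly Dcn. Their median log2 difference was -4.05 with the tumor in sedentary mice and 1.30 with exercise in tumor-bearing mice, with Col1a1 at 9159, 1352, 116 and 348 reads. Erythroid genes summed to 249006, 51510, 235229 and 504487. Immune genes summed to 1571, 1753, 4535 and 3502, with S100a8 at 17.1, 71.2, 2054 and 958 and Cd68 at 92.6, 94.7, 1024 and 319. Their median with the tumor in sedentary mice was -0.08, and Ptprc was at 89.3, 94.1, 84.6 and 53.1. Slow fibre genes summed to 6497, 11308, 17364 and 8038. Epidermal genes summed to 200, 196, 775 and 87.0, and 4, 4, 0 and 5 of the 7 had 0 reads, so the library with the highest Foxo1 and Sesn1 was also the only one with reads of all 7. Epithelial tumor cell genes summed to 61.8, 29.9, 300.4 and 76.0, also highest in that library, with Krt20 at 0 reads in both libraries without a tumor and 189 and 56.3 normalized reads with one, while Epcam had at most 1 read in any library. Over the remaining 4 lists, genes of endothelium summed to 2488 to 3153, of adipocytes to 800 to 3635, of Schwann cells to 1327 to 4072 and of satellite cells to 8.69 to 67.9. The part of these shifts in the differences above was not tested, and in whole muscle fewer cells of a type and less RNA per cell cannot be told apart.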

How the data were processed

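Gastrocnemius RNA of 4 mouse groups, 1 QuantSeq library each, was analysed. According to the methods and the submitters' processing notes, the authors aligned reads with Bowtie2 to mm10, counted them with bedtools and quantile-normalized the counts with edgeR. Each deposited value is on a log2 scale, of a normalized read count to which 1 was added. The annotation and the handling of strand, duplicates and shared reads are not given in the sources used here. Groups came from the sample titles.

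Whole reads were rebuilt from the deposited log2 values with a model of the quantile adjustment (fitted dispersion 0.339), which matched 100% of values within 0.0006. For 95.2% to 96.4% of values per library a single read count fitted, and the others are approximate. Differences, the 2-fold rule with a minimum of 4, exact binomial tests on the rebuilt reads with Benjamini-Hochberg adjustment (genes with at least 1 read, threshold 0.05, library totals) and intervals under TMM scaling (a trimmed mean of log ratios) were computed in Python 3.11.15 with NumPy 2.4.6, SciPy 1.17.1 and pandas 2.3.3, and tested on simulated data. A binomial test on library totals and a TMM interval can differ, as for Foxo4, Foxo1, Sesn3 and Tsc2. The design had foreseen raw counts for the binomial test, and rebuilt reads took their place. Intervals and floors cover counting error only.

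The members and lists were chosen with earlier results of these data known. All 10 members are named, with up to 5 genes per list of the largest range among those reaching 16 normalized reads, and the 3 genes nearest to the member of largest range in each family. Other genes (Gabarapl1, Tti2, Larp1, Prr5l, the genes nearest to Foxo1, and the overlapping and marker genes) were named after their values were seen. Positions are from GENCODE M21 (GRCm38, the assembly of mm10) and upstream sequences from RefSeq (GRCm38.p6). The values of 1 listed gene are not reported here. The alternatives were other scalings, pseudocounts, minimums and fold thresholds.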

Additional observations from a re-analysis of the deposited data

Results flagged for a closer look

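The exercise difference had opposite signs in healthy and tumor-bearing mice, with both counting intervals away from 0, for 2 members and 12 of the named pathway genes reported here. The share of all genes that meet this rule was not computed. Most pathway genes were named for a wide range over these same libraries, so the count is no result about the set. That difference between the pairs was not tested, since each group had 1 library. Values are on the log2 scale, with the exercise difference of healthy mice subtracted from that of mice with a tumor.

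For Tsc1 the exercise difference was 0.70 in healthy and -0.60 in tumor-bearing mice, -1.30 apart. Rptor followed the same course at 0.50 and -0.61, -1.11 apart. Among genes upstream of FoxO or acting on it, Irs1 was 0.99, Akt1 -1.43 and Sirt3 3.09 apart, the last from -2.21 in healthy to 0.87 in tumor-bearing mice. Sirt3 had only 20 and 37 reads in the tumor-bearing pair, and the binomial test on library totals did not pass that difference. The Akt1 difference in tumor-bearing mice was only -0.06. Of the p53 and ATF4 genes, Ccng1 was 2.07 and Trib3 -2.79 apart. Of the other brakes on mTORC1, Ddit4l was 2.26 and Prkab2 1.69 apart, lower with exercise in healthy mice and higher in tumor-bearing mice. In the amino acid arm the values were -1.04 for Rragc, 1.02 for Lamtor4, 1.15 for Fnip1 and -2.00 for Fnip2. For Lamtor4 the difference in healthy mice was only -0.17, and the binomial test on library totals did not pass it. The cap-binding factor gene Eif4e was 1.27 apart.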

How the results depend on the processing

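Of 40 alternative counts of members at least 2-fold apart, 35 were within 1.5 times the reported count. For exercise in healthy mice, where 0 members were counted, no minimum gave 1 (Sesn2, from 1 read to 0) and a fold of at least 1.5 gave 2. For exercise in tumor-bearing mice, a fold of at least 1.5 gave 5 and a fold of at least 4 gave 1, against 3. For the tumor in exercised mice, a fold of at least 4 gave 2 against 4. These follow from the thresholds themselves. Total count scaling took Mtor under 2-fold with the tumor in exercised mice, at 0.93, and left 3 members. The 8 alternative binomial counts were within 1.5 times. The only changes in count were 6 in place of 7 and 5 in place of 6 under TMM library sizes. An equal count need not hold the same genes, and the genes behind these counts were not compared. With exercise in healthy mice the TMM intervals of Foxo1 and Tsc2 excluded 0, although the test on library totals did not pass them. Of 200 alternative log2 differences of members, 197 stayed inside the counting interval, which a part of them could hardly leave. TMM library sizes differed from those behind the deposited values by at most 0.0066%. TMM scaling therefore nearly repeats the reported differences, 2-fold counts and list counts. The intervals of Sesn2, and that of Foxo3 with exercise in healthy mice, were open at the lower or both ends. The 3 that left their interval came from total count scaling. It gave 0.13 for Foxo4 with exercise in healthy mice, and 1.39 for Foxo1 and -0.14 for Foxo4 with the tumor in exercised mice. That scaling moved the median of all genes by 0.16 in the first and -0.15 in the second of these comparisons. Of 120 list counts under other scalings, an alternative chosen after seeing the data, 110 were within 1.5 times. No paired analysis was possible because each group had 1 library, and for the same reason no library could be left out. Depth limits Foxo3, Sesn2 and Sesn3, with at most 49 reads in any library.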
